A study of Homo sapiens with 6 samples.

Results

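The 8 long non-coding RNAs (lncRNAs) with regulatory roles, MALAT1, NEAT1, PVT1, MIR22HG, MIR31HG, LINC-PINT, TUG1 and H19, were measured by RNA-seq in HK-2 cells. These cells are an established line, immortalized from the proximal tubule epithelium of a human kidney. The 8 genes were found by their symbols among the 58825 genes of the table, and each symbol matched 1 row. There were 2 groups of 3 libraries. Control cells were untreated, and the labels give no culture time for them. OX-LDL cells received 25 μg/ml oxidized low-density lipoprotein, a modified lipid particle, for 48 h. The labels name no separate cultures behind the libraries, so p-values measure the spread between these samples, which may be technical.

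LncRNAs act without being translated. MALAT1 gathers in nuclear speckles, where splicing factors are stored, and NEAT1 is the scaffold of paraspeckles, nuclear bodies built around its long isoform. PVT1 lies beside the oncogene MYC, TUG1 and LINC-PINT have been linked to the Polycomb repressive complex PRC2, and H19 is an imprinted RNA expressed from the maternal chromosome beside IGF2. MIR22HG, MIR31HG and H19 are also the host transcripts of microRNAs, and the spans of PVT1 and NEAT1 hold microRNA genes as well.

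These lncRNAs were grouped as abundant, and by level that held for MALAT1 and TUG1. Levels are given in FPKM (fragments scaled for transcript length and library size), which allow comparison between genes. Over the 6 libraries MALAT1 averaged 28.6 FPKM and TUG1 13.9 FPKM, levels above those of 93.5% and 85.3% of the 19510 genes tested. The other 6 averaged 1.04 (MIR22HG), 0.936 (PVT1), 0.664 (NEAT1), 0.419 (MIR31HG), 0.168 (LINC-PINT) and 0.119 FPKM (H19). The FPKM of NEAT1 is scaled by a length that includes its long isoform, and that of PVT1 by a longer gene model. Their places in this order depend on those lengths. By counts per library, NEAT1 held 602 to 2537, PVT1 566 to 1050 and MIR22HG 4 to 614. About 4 counts per read pair were inferred, so all counts given here stand for fewer read pairs. The median tested gene was at 2.19 FPKM and the median of 3110 tested lncRNA genes at 0.325 FPKM. MALAT1 and TUG1 took 88.6 to 94.5% of the summed FPKM of the 8 genes. That sum was 44.1, 47.6 and 45.5 FPKM in Control and 53, 40.7 and 44 FPKM in OX-LDL, with overlapping groups (two-sided exact permutation p = 0.9). The ranges of MALAT1, TUG1 and the rest were separate, whereas each neighbouring pair from MIR22HG down to H19 overlapped.

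**Figure D1:**
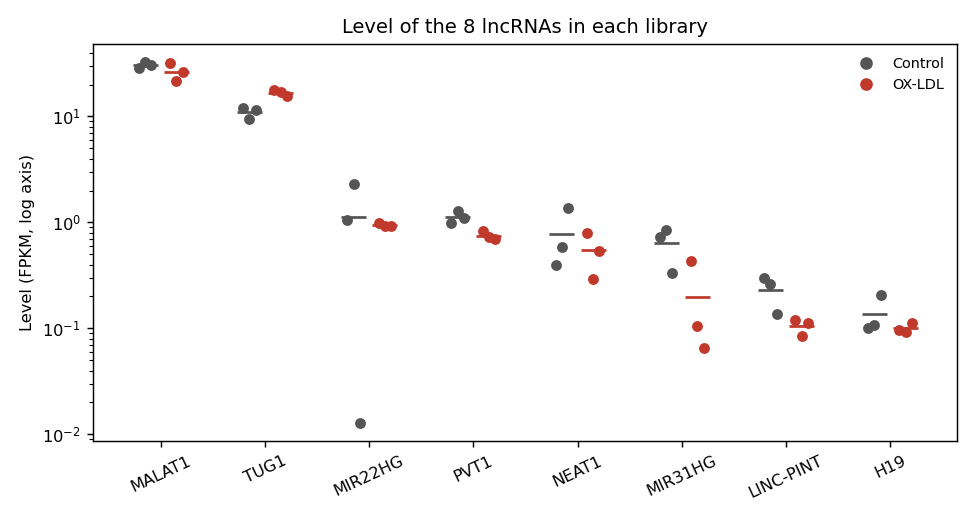
Level of each lncRNA in the 6 libraries, in FPKM on a log axis, with points for libraries, horizontal bars for group means, grey for Control and red for OX-LDL. MALAT1 and TUG1 stand above the other 6, TUG1 is higher in every OX-LDL library, and 1 Control library of MIR22HG sits at 0.0129 FPKM.

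Only TUG1 passed the test between groups. With the edgeR quasi-likelihood test and Benjamini-Hochberg adjustment over all genes tested, 1 of the 8 lncRNAs was higher in OX-LDL and 0 were lower at an adjusted p under 0.05. At an unadjusted p under 0.05, PVT1 and LINC-PINT were past the threshold as well, which makes 3 of the 8 beside 30.4% of all genes, and DESeq2 called 3 of the 8, TUG1, PVT1 and LINC-PINT. Over all genes tested edgeR called 15.3%, with 7.91% higher and 7.42% lower in OX-LDL, and DESeq2 called 22.7%. Among lncRNA genes edgeR called 5.56%. In simulated counts with 200 changed genes, 64 of 241 DESeq2 calls were false, against 10 of 166 edgeR calls. The simulation used edgeR's own dispersion estimates and changed only genes that averaged 1 FPKM or more. PVT1 and LINC-PINT averaged less, so these simulated shares do not carry over to their DESeq2 calls. The groups did not overlap for 3 of the 8, beside 37.2% of all genes. A fold above 2 or below 0.5 with an unadjusted p under 0.05 took in LINC-PINT alone, beside 6.36% of all genes, and the same fold with an adjusted p under 0.05 took in 0 of the 8, beside 3.91%. The study's sources do not settle which of these p-values its rule used. For 8 genes, the edgeR counts at either p and the count without overlap lie near these background shares. The fitted log2 fold change was below 0 for 7 of the 8, beside 50.3% of all genes and 48.8% of lncRNA genes. The median was -0.49, beside a median of -0.00 over all genes and 0.02 over lncRNA genes. Of these 7, edgeR called 0, and NEAT1 and MIR22HG changed sign in other settings.

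**Figure D2:**
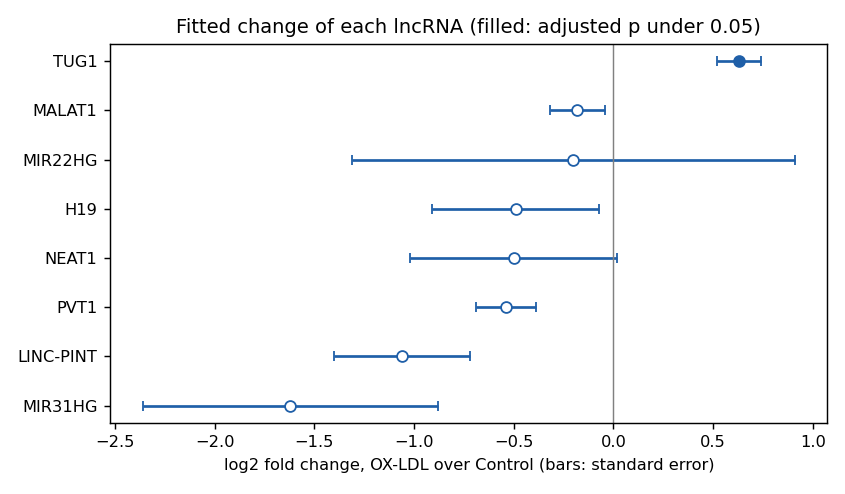
Fitted log2 fold change of each lncRNA, OX-LDL over Control, with bars for the standard error and a filled point for an adjusted p under 0.05. TUG1 at 0.63 is the filled point, and MIR22HG and MIR31HG carry the widest bars.

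TUG1 (taurine upregulated 1, ENSG00000253352, chr22:30969245-30978847, plus strand, GRCh38) was the member that rose. Its level was 12, 9.53 and 11.6 FPKM in Control and 17.8, 16.9 and 15.5 FPKM in OX-LDL. Every OX-LDL library was above every Control library. The means were 11 ± 1.31 and 16.7 ± 1.15 FPKM (SD, n = 3 each). The fitted level was 1.55-fold higher in OX-LDL and the log2 fold change 0.63 (SE 0.11, edgeR quasi-likelihood adjusted p = 0.0139). Its estimated counts, 8642 to 15545 per library, made it the second most deeply covered of the 8. Without the first OX-LDL library the adjusted p was 0.0516 at a log2 fold change of 0.59.

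TUG1 starts 471 bases from MORC2, which encodes an ATPase that takes part in gene silencing and is transcribed in the opposite direction. MORC2 was at 8.14, 8.20 and 7.86 FPKM in Control and 7.56, 7.63 and 6.89 FPKM in OX-LDL. For MORC2 the log2 fold change was -0.10 (SE 0.07, edgeR adjusted p = 0.415). The ratio of TUG1 to MORC2 in each library, a comparison chosen after the values were seen, was 1.47, 1.16 and 1.47 in Control and 2.36, 2.21 and 2.25 in OX-LDL. No test is given for it, since TUG1 was higher and MORC2 lower in every OX-LDL library, which fixes the order of the ratios. The RefSeq promoter of TUG1 (chr22:30969015-30969314, GRCh38, plus strand, 250 bases before to 50 after the start) is printed because its gene changed and its divergent neighbour did not pass the test. Capitals mark an E-box, CACGTG, and SP1 boxes, GGGCGG, on either strand.
TUG1 promoter: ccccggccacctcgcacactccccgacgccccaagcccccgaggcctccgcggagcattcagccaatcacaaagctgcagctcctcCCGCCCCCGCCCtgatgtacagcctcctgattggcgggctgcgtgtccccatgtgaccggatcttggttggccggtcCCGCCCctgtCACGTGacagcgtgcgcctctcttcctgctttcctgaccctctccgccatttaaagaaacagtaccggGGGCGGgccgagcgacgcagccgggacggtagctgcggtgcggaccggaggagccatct
The window holds 1 E-box and 4 SP1 boxes. Of 35116 promoters of this length, 7.26% hold that E-box and 45% hold an SP1 box. The hypoxia element core, ACGTG, which lies within the E-box, is held by 21.4%. SMTN, which encodes the contractile-cell protein smoothelin and lies 85258 bases from TUG1, rose from 1.2 ± 0.213 to 3.78 ± 0.937 FPKM (SD, n = 3 each; log2 fold change 1.69, edgeR adjusted p = 0.00491).

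MALAT1 (ENSG00000251562, chr11:65497688-65506469, plus strand) was the most abundant. It was at 28.5, 32.6 and 30.8 FPKM in Control and 31.9, 21.6 and 26.0 FPKM in OX-LDL. The groups overlapped, since the first OX-LDL library was above 2 Control libraries while the other two were below all of them. The means were 30.7 ± 2.05 and 26.5 ± 5.15 FPKM (SD, n = 3 each), with a log2 fold change of -0.18 (SE 0.14, edgeR adjusted p = 0.437). Counts were 17344 to 25697 per library, the highest of the 8 genes.

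NEAT1 (ENSG00000245532, chr11:65422774-65445540, plus strand) lies beside MALAT1 and was far lower. It was at 0.400, 0.587 and 1.37 FPKM in Control and 0.802, 0.290 and 0.540 FPKM in OX-LDL. The third Control library was the highest and the second OX-LDL library the lowest, and the groups overlapped. The log2 fold change was -0.50 (SE 0.52, edgeR adjusted p = 0.578), and without the third Control library it was 0.17. Within each library the ratio of NEAT1 to MALAT1 was 0.0140, 0.0180 and 0.0443 in Control and 0.0252, 0.0134 and 0.0207 in OX-LDL, giving a log2 difference of -0.23 (two-sided exact permutation p = 0.8). The divisor of its FPKM tracked the annotated 22767 exon bases of the gene, which include the long isoform. The table does not separate the isoforms.

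The libraries were made from RNA selected for a poly(A) tail in repeated rounds. MALAT1 and the long NEAT1 isoform end instead where RNase P cuts, just after a short genome-encoded A-rich tract. The last 100 bases before those ends, from GENCODE release 29 transcripts and exonic, are printed because this tract is the A-rich stretch that stands in place of a tail. Capitals mark the tract.
NEAT1 3′ end: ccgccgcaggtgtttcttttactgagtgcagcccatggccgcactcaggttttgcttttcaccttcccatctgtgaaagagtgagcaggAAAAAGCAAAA
MALAT1 3′ end: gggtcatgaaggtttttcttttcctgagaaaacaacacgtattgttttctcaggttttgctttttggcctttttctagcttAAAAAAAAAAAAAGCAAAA
The tract is 11 bases in NEAT1, at the end of the 22743-base transcript, and 19 bases in MALAT1, whose 8708-base annotated transcript goes on for 353 bases. Of 10 other RNAs without a poly(A) tail, such as the signal recognition particle RNA RN7SL1, 7 were tested and 0 were called by edgeR, with a median log2 fold change of -1.03. Of the 10, 5 stayed at or under 12 counts in every library. The summed level of the 10, mostly RN7SL1 and RN7SL2, was 25.4, 33.4 and 19.6 FPKM in Control. In OX-LDL it was 9.41, 11.1 and 16.9 FPKM, so every OX-LDL library was below every Control library. The part of this difference in the MALAT1 and NEAT1 values was not tested.

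The genes whose levels followed MALAT1 most closely over the 6 libraries were NUP88, a nuclear pore protein (Pearson r = 0.989 on log2 values), SF3B4, a spliceosome subunit (r = 0.983), and WASHC1, of the endosomal WASH complex (r = 0.983). For NEAT1 they were ZNF346 (0.969), CECR7 (0.965) and LCOR (0.962). These are the highest of 12259 genes over only 6 libraries, which share depth and library preparation, and are given as a description.

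PVT1 (ENSG00000249859, chr8:127794533-128187101, plus strand) was at 0.981, 1.29 and 1.09 FPKM in Control and 0.830, 0.725 and 0.697 FPKM in OX-LDL. Every OX-LDL library was below every Control library, and the means were 1.12 ± 0.159 and 0.751 ± 0.0706 FPKM (SD, n = 3 each). The log2 fold change was -0.54 (SE 0.15, edgeR quasi-likelihood adjusted p = 0.056), and DESeq2 gave an adjusted p of 0.00955. MYC, 51583 bases away and named after its values were seen, was at 0.986, 24.7 and 1.26 FPKM in Control and 16.1, 6.04 and 0.978 FPKM in OX-LDL. MYC thus varied widely within both groups, while PVT1 stayed between 0.697 and 1.29 FPKM. The FPKM divisor of PVT1 was 1.95 to 1.98 times its exon length in GENCODE release 29, against 1.18 times for the median gene, so its level per length rests on a longer gene model.

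LINC-PINT (ENSG00000231721, chr7:130938963-131110176, minus strand) is a p53-induced lncRNA. It was at 0.297, 0.260 and 0.136 FPKM in Control and 0.119, 0.0851 and 0.112 FPKM in OX-LDL, on 75 to 240 counts per library. The groups did not overlap, although the third Control library came close to OX-LDL. The log2 fold change was -1.06 (SE 0.34, edgeR adjusted p = 0.0824). DESeq2 gave an adjusted p of 0.023, and edgeR without the third Control library 0.0388.

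The LINC-PINT value depends on which rows are counted. A second row of the locus, ENSG00000226380, is named AC016831 in the deposited data and starts within a RefSeq promoter window listed for LINC-PINT. It held 57, 186 and 10 counts in Control and 64, 46 and 53 in OX-LDL. Summed with it, LINC-PINT was at 3.99, 5.32 and 1.67 CPM (counts scaled to library totals) in Control and 2.40, 1.58 and 1.93 in OX-LDL, and the groups overlapped. Another row, ENSG00000285106, overlaps LINC-PINT on the same strand and held 35 to 122 counts, so reads could have been split between them. MKLN1, which encodes muskelin, overlaps the start of LINC-PINT on the other strand. It was at 15.0, 8.17 and 4.18 FPKM in Control and 7.89, 4.27 and 4.92 FPKM in OX-LDL (log2 fold change -0.65, edgeR adjusted p = 0.395).

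**Figure D3:**
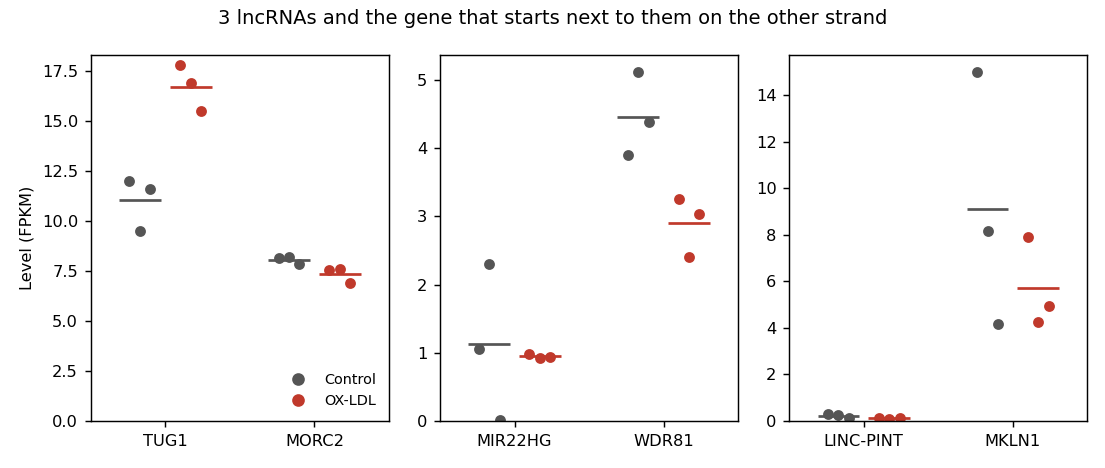
Levels in FPKM of TUG1, MIR22HG and LINC-PINT, each beside the gene that starts next to it on the other strand, with points for libraries and bars for group means. TUG1 is higher in OX-LDL while MORC2 has a log2 fold change of -0.10, WDR81 is lower in every OX-LDL library, and MKLN1 spreads from 4.18 to 15.0 FPKM in Control.

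MIR22HG, MIR31HG and H19 host microRNAs, short RNAs that pair with messages mainly through their seed, bases 2 to 8. Their mature sequences from RefSeq are printed because the host values say nothing of these products. For MIR31 the RefSeq entries used held only miR-31-5p, so the set of mature forms may not be complete. Capitals mark the seed, and all 5 seeds differ.
miR-22-3p: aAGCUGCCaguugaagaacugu
miR-22-5p: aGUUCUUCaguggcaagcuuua
miR-31-5p: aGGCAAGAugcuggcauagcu
miR-675-3p: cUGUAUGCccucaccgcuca
miR-675-5p: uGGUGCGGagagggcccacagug
The hairpin rows held at most 3 counts per library for MIR22, 0 for MIR31 and at most 1 for MIR675, so the mature microRNAs were not measured by these libraries. The hairpins within PVT1, MIR1204 to MIR1208, held at most 4 counts, and their mature sequences are not printed. miR-22-3p lies at chr17:1713914-1713935, miR-31-5p at chr9:21512158-21512178 and miR-675-5p at chr11:1996800-1996822, each on the minus strand within its host's span (GRCh38).

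MIR22HG (ENSG00000186594, chr17:1711493-1716251, minus strand) turned on single Control libraries. It held 282, 614 and 4 counts in Control and 220, 253 and 255 in OX-LDL. The third Control library was thus under the limit of 12 counts taken for detection, while OX-LDL was even. The log2 fold change was -0.20 (SE 1.11, edgeR adjusted p = 0.928), and it was 0.82 without the second Control library and -0.78 without the third. Over all tested genes, 0.441% had at most 12 counts in 1 library and over 200 in another of the same group. The comparison was framed after the MIR22HG counts were seen, and genes of low level could not reach it. Of 11 other microRNA host lncRNAs tested, MIR34AHG (258, 12 and 4 counts) and MIR3142HG (172, 261 and 0) swung likewise in Control. WDR81, an endosomal protein gene that starts 272 bases away on the other strand, fell from 4.47 ± 0.617 to 2.90 ± 0.446 FPKM (SD, n = 3 each; log2 fold change -0.59, edgeR adjusted p = 0.0391), and it was at 4.38 FPKM in the third Control library. The RefSeq promoter of MIR22HG (chr17:1716161-1716460, minus strand), shown for comparison with that of TUG1, holds 3 SP1 boxes, 1 hypoxia element core and no E-box. Of the 4 RefSeq promoters of LINC-PINT, the one at chr7:130913261-130913560 holds the same E-box, and the others hold none. That window lies outside the span of the tested LINC-PINT row, at the start of the second row, ENSG00000226380. Over all promoters, 7.26% hold this E-box.
MIR22HG promoter: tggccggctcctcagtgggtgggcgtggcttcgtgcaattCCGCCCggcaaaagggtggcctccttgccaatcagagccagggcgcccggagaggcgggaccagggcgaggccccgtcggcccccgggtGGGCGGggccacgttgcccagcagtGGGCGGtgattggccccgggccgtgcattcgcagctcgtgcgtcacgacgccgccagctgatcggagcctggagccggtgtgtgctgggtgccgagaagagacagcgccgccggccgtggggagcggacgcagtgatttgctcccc
SLC43A2, an amino acid transporter gene (log2 fold change 1.38, edgeR adjusted p = 0.0208), and PRPF8, a core splicing factor gene (0.24, adjusted p = 0.0487), also lie within 100 kb of MIR22HG and rose.

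MIR31HG (ENSG00000171889, chr9:21455642-21559669, minus strand) was at 0.735, 0.847 and 0.330 FPKM in Control and 0.428, 0.106 and 0.0656 FPKM in OX-LDL. The first OX-LDL library was above the third Control library, so the groups overlapped. The log2 fold change of -1.62 was the lowest of the 8, with an SE of 0.74 (edgeR adjusted p = 0.198). It was -2.70 without the first OX-LDL library (adjusted p = 0.0693) and -1.21 without the third (adjusted p = 0.378). These values rest on 49, 57 and 21 counts against 24, 8 and 5, and the last 2 of these are under the limit of 12 counts. At about 4 counts per read pair, that limit stands for 3 read pairs.

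H19 (ENSG00000130600, chr11:1995176-1997875, minus strand) was at 0.1, 0.108 and 0.205 FPKM in Control and 0.0967, 0.0922 and 0.112 FPKM in OX-LDL, on 21 to 51 counts. The groups overlapped, and the third Control library was the highest (log2 fold change -0.49, SE 0.42, edgeR adjusted p = 0.498). IGF2, its imprinted partner, had at most 17 counts in any library and 0 in 2 Control libraries, so no ratio of the pair was computed. MRPL23, a mitochondrial ribosomal protein gene 32338 bases from H19, rose from 2.98 ± 0.185 to 5.25 ± 0.829 FPKM (SD, n = 3 each; log2 fold change 0.85, edgeR adjusted p = 0.0137). Over all 8 lncRNAs, 37 neighbouring genes were tested within 100 kb, of which 4 rose and 1 fell. For 37 genes this lies near the 15.3% that edgeR called over all genes tested. With 1 library left out, 2 to 5 of these neighbours were called.

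Transcripts of proteins that work with these lncRNAs moved in both directions. The counts called in each list stand beside 15.3% called by edgeR over all genes tested, which reach down to 0.1 FPKM. Most genes of these protein lists were above 1 FPKM. With that minimum edgeR called 3152 of 12259 genes, a larger share. Of 16 paraspeckle proteins, 4 rose and 2 fell (edgeR, adjusted p under 0.05), with a median log2 fold change of 0.13. SFPQ, a core paraspeckle protein that binds NEAT1, rose from 46.4 ± 3.58 to 90 ± 15.3 FPKM (SD, n = 3 each; log2 fold change 0.99, edgeR adjusted p = 0.00713), and HNRNPK rose by 0.47 on the log2 scale. CPSF6 and SMARCA4 rose by 0.34 and 0.27. PSPC1 fell by 0.36 and HNRNPH3 fell by 0.26. In every OX-LDL library NONO was below every Control library, but it was not called (log2 fold change -0.38, edgeR adjusted p = 0.143). Of 18 nuclear speckle and SR proteins, 2 rose and 3 fell, with SRSF9 up by 0.55 and the splicing kinase CLK1 down by a log2 fold change of -0.46. Of 11 RNase P and RNase Z subunits, which cut the MALAT1 and NEAT1 ends, 1 rose, POP1 (0.82).

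Of 11 PRC2 subunits and partners, 4 fell and 1 rose, with a median log2 fold change of -0.21. PHF1 fell from 9.97 ± 1.45 to 5.40 ± 0.599 FPKM (SD, n = 3 each; log2 fold change -0.85, edgeR adjusted p = 0.0103). EZH1, AEBP2 and SUZ12 had log2 fold changes of -0.55, -0.42 and -0.38, and RBBP7, a histone-binding subunit, rose by 0.35. Of 14 microRNA processing genes, 2 rose, PRKRA (0.72) and DROSHA (0.50), and 1 fell, the exporter XPO5 (-0.40). Of 13 genes of the H19 and IGF2 axis, 9 were tested, PLAGL1 (0.83) and HMGA2 (0.66) rose, and IGF2R (-0.41) and DNMT1 (-0.38) fell.

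Other lncRNAs were mostly not called, beside 5.56% called by edgeR among all lncRNA genes tested. Over all lists, TUG1 included, edgeR called 31 genes, and 12 to 26 with 1 library left out, the fewest without either the first or the third OX-LDL library. Of 20 other microRNA host lncRNAs, 11 were tested and 1 rose, MIR210HG, the host of a hypoxia-induced microRNA, from 0.175 ± 0.0317 to 0.865 ± 0.135 FPKM (SD, n = 3 each; log2 fold change 2.33, edgeR adjusted p = 0.00475). Of 30 other studied lncRNAs, 17 were tested and 1 fell, JPX, a lncRNA of the X-inactivation centre, from 1.67 ± 0.0518 to 1.02 ± 0.0307 FPKM (SD, n = 3 each; log2 fold change -0.68, edgeR adjusted p = 0.00627).

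**Figure D4:**
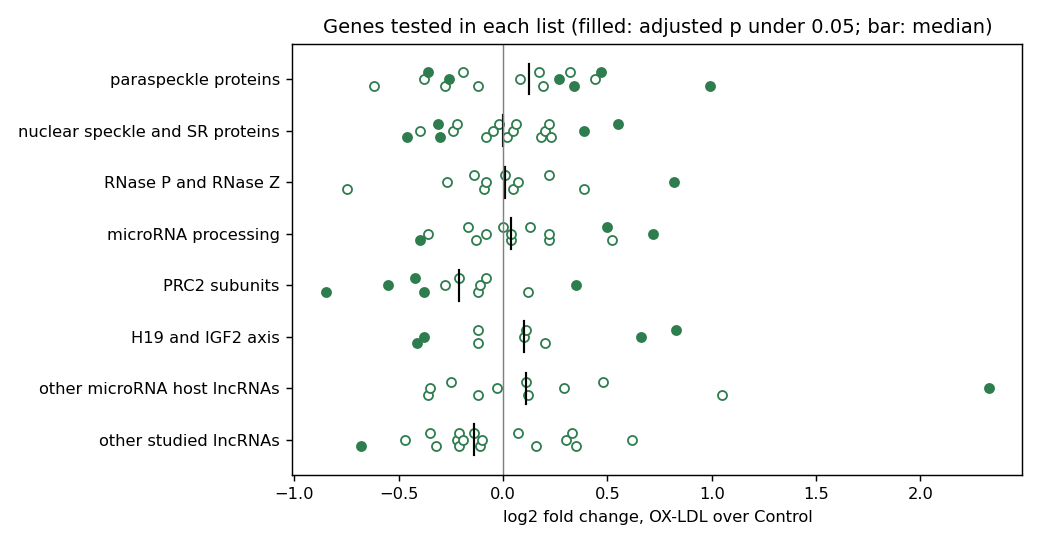
Log2 fold change, OX-LDL over Control, of the tested genes in 8 lists, with 1 point per gene, filled for an adjusted p under 0.05, and a bar for the median. Filled points lie on both sides of 0 in the paraspeckle, speckle, microRNA processing, PRC2 and H19 lists, and MIR210HG at 2.33 is the farthest.

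Libraries held 62561347 to 76797607 estimated counts, with 5.25 to 5.69% mitochondrial. Of 16 kidney epithelial markers, 11 were tested, and those called included KRT8 and CDH2, which rose, and PAX8, which fell (log2 fold change -1.23), while the proximal tubule receptor LRP2 was at 0 counts in all 6 libraries. Of 14 markers of other cell types 4 were tested, 0 were called and 8 were not detected, and their summed level, mostly LUM and CD68, was 15.1 to 17.9 FPKM in Control and 18.8 to 27.9 FPKM in OX-LDL. The part of this in the lncRNA values was not tested. In bulk RNA, fewer cells expressing a gene and less RNA per cell cannot be told apart.

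The calls were compared across tools, scalings, filters and left-out libraries. TUG1 stayed above 0 in every setting, while NEAT1 and MIR22HG lay on both sides of 0.

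**Figure D5:**
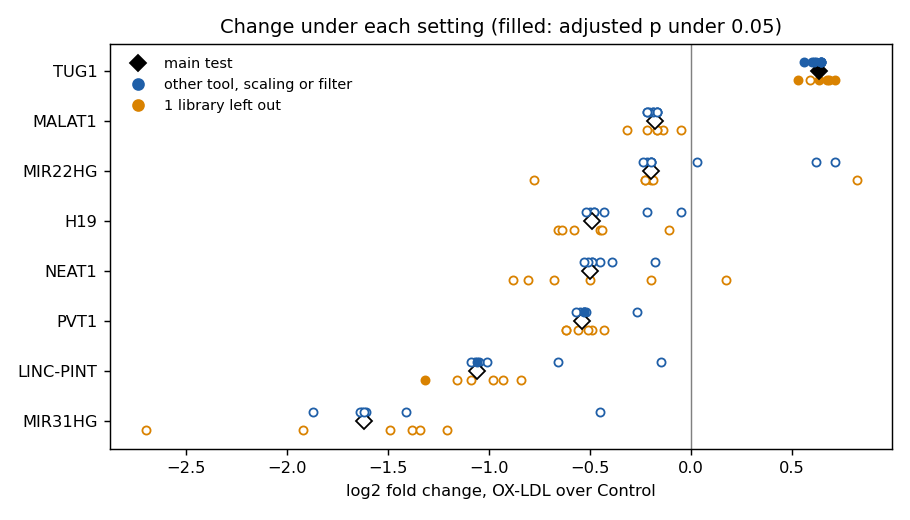
Log2 fold change of each lncRNA under the main test (black), other tools, scalings and filters (blue) and with 1 library left out (orange), filled for an adjusted p under 0.05. TUG1 lies between 0.53 and 0.71 and is open in 1 setting, and MIR22HG spreads from -0.78 to 0.82.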

How the data were processed

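The 6 HK-2 libraries, 3 Control and 3 OX-LDL, were grouped by their treatment labels. Poly(A) RNA was sequenced in pairs from dUTP-marked libraries, and whether counting used the strand is not given in the sources used here. The submitters' processing notes name cutadapt 1.9, HISAT2 2.0.4, StringTie 1.3.4d and GRCh38. The authors deposited estimated counts, which are whole numbers and not scaled for library size. The authors also gave FPKM, scaled for transcript length and library size, with a count of 0 listed at 0.0001. Genes piled up at 4, 8 and 12 counts, from which about 4 counts per read pair were inferred, and 12 counts per library was taken as the limit of detection. On that scale the libraries held 15640337 to 19199402 read pairs.

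Counts were fitted with edgeR 4.0.16 in R 4.3.3 (TMM factors, glmQLFit and glmQLFTest, group as the only term) over 19510 genes that averaged 0.1 FPKM or more, with Benjamini-Hochberg adjustment over all of them. A gene was called at an adjusted p under 0.05. Each standard error was derived from the fold change and the square root of its F statistic. Ratios and sums were compared by two-sided exact permutation tests, which cannot go below p = 0.1 with 3 against 3 libraries. Alternatives were DESeq2 1.42.0, RLE factors, total counts only, no minimum, a minimum of 1 FPKM, limma 3.58.1 on log2(FPKM + 0.1) and log2(FPKM + 1), a replicate block and each library left out. The scripts were tested on simulated data. The members and lists were chosen with earlier results of these data known. The text names all members, called neighbours within 100 kb and up to 4 called genes of each list by smallest p. It also names the 3 genes most like MALAT1 and NEAT1. Chosen after their values were seen were MORC2, MKLN1, MYC, PSPC1, HNRNPH3, NONO, RBBP7, RN7SL1, RN7SL2, MIR34AHG, MIR3142HG, LRP2, LUM and CD68. Of the 8 lncRNAs, 6 had a RefSeq promoter entry. Within groups, library pairs gave chi-square values of 15.7 to 27.3 per gene, so no library was a copy of another. The value of 1 marker gene is not reported here.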

Additional observations from a re-analysis of the deposited data

How the results depend on the processing

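Groups of 3 libraries limit every call. Of the 8 lncRNAs, 1 was called by the main test, 3 by DESeq2, and 0 to 2 with 1 library left out: 0 without the first OX-LDL library and 2 without the third Control library. TUG1 had an adjusted p of 0.0516 (log2 fold change 0.59) without the first OX-LDL library and was called in every other setting run. The log2 fold change changed sign for NEAT1 (-0.88 to 0.17 with 1 library left out, above 0 only without the third Control library) and for MIR22HG (0.62 and 0.03 with limma at pseudocounts of 0.1 and 1, 0.71 with the replicate block and -0.78 to 0.82 with 1 library left out, above 0 only without the second Control library). The log2 ratio of NEAT1 to MALAT1 ran from -0.56 to 0.27 with 1 library left out, above 0 without the third Control (0.27) or second OX-LDL library (0.03). The log2 difference in the summed level ran from -0.11 to 0.08, against -0.00, and was 0.03 from counts, 0.03 without the second Control, 0.08 without the second OX-LDL and 0.02 without the third OX-LDL library. The MALAT1, PVT1, MIR31HG, LINC-PINT and H19 log2 fold changes kept their sign in every setting run. The cause was not tested.

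Over all genes tested, 2991 were called by the main test, 4430 by DESeq2 and 1161 to 2943 with 1 library left out. With the replicate block, 1636 genes, 18 of the genes in the lists (31 in the main test) and 3 neighbouring genes (5 in the main test) were called. Deviations of same-numbered libraries from their group means had correlations of -0.041, -0.00313 and 0.0356. With 3 libraries per group these values do not settle whether such libraries shared a batch, and the labels give no pairing beyond the number. With 1 library left out, 12 to 26 list genes and 2 to 5 neighbouring genes were called. List genes called were 16 without the first and 14 without the second Control library, and 12 without either the first or the third OX-LDL library. Neighbouring genes called were 9 by DESeq2 and 3 without a minimum level.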
